A study of Mus musculus with 30 samples.

Results

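Gene expression in lungs of lincRNA-Cox2 knockout mice was compared with that in lungs of wild type mice after both had received lipopolysaccharide (LPS). The comparison took every entry of the lung table and 6 of the 30 libraries of the series, 3 from knockout lungs with LPS and 3 from wild type lungs with LPS. All mice were 8 weeks old and of the C57BL/6 strain, with no substrain given. They received LPS, a component of bacterial cell walls sensed by Toll-like receptor 4, at 20 mg/kg into the abdominal cavity, and lungs were taken after 6 h. Beside these stand 2 knockout and 2 wild type lung libraries with PBS (the vehicle), 3 LPS lung libraries of a second line labelled lincRNA-Cox2 mutant, and 3 knockout and 3 wild type spleen libraries with LPS. The labels do not say how either line was made or whether replicates were separate animals, so the p-values measure only spread between libraries. Which lung libraries the authors' fit took in is not stated, so that spread may not come from the 6 compared alone.

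The long noncoding RNA lincRNA-Cox2 is made close to Ptgs2, which encodes cyclooxygenase 2. In inflamed tissue the phospholipase Pla2g4a frees arachidonic acid from membranes and cyclooxygenase 2 turns it into the precursor of the prostaglandins, lipids that act on blood vessels, airways and leukocytes through their own receptors. In the lung LPS calls in neutrophils and induces cytokines, chemokines and interferon-responsive genes.

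The deposited lung table holds group means and no value of a single library, so for each gene the mean of the knockout and of the wild type group is given, in normalized counts (DESeq2, named in the submitters' processing notes, divides reads by a size factor of the library), and the spread between libraries enters only through the authors' adjusted p. The deposited log2 fold is knockout over wild type and is pulled towards 0, most for low means. A gene was called where the adjusted p was under 0.05. By the steps between low means, the knockout LPS libraries held an estimated 5.20 to 8.62 M reads and the wild type LPS libraries 8.17 to 13.0 M. The knockout group was thus the shallower one, though the ranges overlap. A mean of 3 reads over the group, the limit that a count of 0 allows for counting error, was 1.99 in knockout and 1.22 in wild type LPS lungs. Markers fitted lung in both groups: Sftpc, the surfactant protein of alveolar type 2 cells, had means of 40000 in knockout and 35400 in wild type LPS lungs. Ddx3y, from the Y chromosome, stood at 1130 in knockout and 1150 in wild type LPS lungs, and Xist, from the inactive X chromosome, at 23.2 in knockout and 14.5 in wild type; with PBS, Xist had means of 1910 in knockout and 3660 in wild type lungs.

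The results turn on the lincRNA-Cox2 locus and on a set of clustered histone genes, so the promoter sequences of both are shown first. Each runs from 250 bases before the RefSeq start site to 30 bases after it, 5′ to 3′ on the gene's strand (GRCm38.p6, the mm10 assembly), and capitals mark short motifs found by letter match on both strands. The locus is represented by Ptgs2 (chr1:150099781-150100060, plus strand), lincRNA-Cox2 (named Ptgs2os2 by RefSeq, chr1:150164919-150165198, minus strand) and Pla2g4a (chr1:149961261-149961540, minus strand).
Ptgs2: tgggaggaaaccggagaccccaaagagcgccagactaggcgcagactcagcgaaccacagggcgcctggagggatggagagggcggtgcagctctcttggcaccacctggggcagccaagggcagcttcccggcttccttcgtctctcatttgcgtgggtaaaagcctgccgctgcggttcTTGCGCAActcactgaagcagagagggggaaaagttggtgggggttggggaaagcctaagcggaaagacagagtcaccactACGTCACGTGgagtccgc
lincRNA-Cox2: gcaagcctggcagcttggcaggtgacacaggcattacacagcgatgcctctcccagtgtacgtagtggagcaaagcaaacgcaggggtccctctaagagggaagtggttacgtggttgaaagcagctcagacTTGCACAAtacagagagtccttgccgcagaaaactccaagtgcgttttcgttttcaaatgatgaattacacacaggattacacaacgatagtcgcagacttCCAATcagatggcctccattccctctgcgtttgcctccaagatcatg
Pla2g4a: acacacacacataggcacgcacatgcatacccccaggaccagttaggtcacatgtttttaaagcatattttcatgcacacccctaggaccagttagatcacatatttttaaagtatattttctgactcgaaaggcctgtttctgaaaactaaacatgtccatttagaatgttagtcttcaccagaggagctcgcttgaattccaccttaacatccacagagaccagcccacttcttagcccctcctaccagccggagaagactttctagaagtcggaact
In Ptgs2 the capitals mark a C/EBP-like match (TTNNGCAA, here TTGCGCAA) that begins at position -69, counted from the start site as position 1 and the base before it as -1, and, after the start site, the core of a cAMP response element (TGACGT, read on the other strand as ACGTCA) at position 13, which overlaps an E-box (CACGTG) at position 17. LincRNA-Cox2 carries another C/EBP-like match, TTGCACAA, at position -118 and a CCAAT box at position -17. Windows of the same length hold the C/EBP-like letters in 10.3% of 27025 RefSeq genes, the cAMP element core in 7.40%, the E-box in 6.89% and the CCAAT box in 36.6%. A TATA box (TATAAA, in 13.7% of genes), a kappaB-like match (GGG, any 3 bases and TTCC, in 5.15%) and an AP-1 match (TGANTCA, in 7.57%) were also searched in these 3 windows and gave no match, and Pla2g4a had none of the 7 motifs. Such matches describe the letters only.

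The histone promoters belong to the 3 called genes of the family, all on chromosome 13: Hist1h2af (H2ac10 in RefSeq, chr13:23533625-23533904, plus strand), Hist1h1d (H1f3, chr13:23554782-23555061, plus strand) and Hist1h1e (H1f4, chr13:23622529-23622808, minus strand).
Hist1h2af: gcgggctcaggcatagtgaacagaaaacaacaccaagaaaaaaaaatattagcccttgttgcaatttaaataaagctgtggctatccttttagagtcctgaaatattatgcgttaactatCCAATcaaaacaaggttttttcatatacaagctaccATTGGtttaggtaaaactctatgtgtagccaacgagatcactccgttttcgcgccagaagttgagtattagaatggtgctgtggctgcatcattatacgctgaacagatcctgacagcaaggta
Hist1h1d: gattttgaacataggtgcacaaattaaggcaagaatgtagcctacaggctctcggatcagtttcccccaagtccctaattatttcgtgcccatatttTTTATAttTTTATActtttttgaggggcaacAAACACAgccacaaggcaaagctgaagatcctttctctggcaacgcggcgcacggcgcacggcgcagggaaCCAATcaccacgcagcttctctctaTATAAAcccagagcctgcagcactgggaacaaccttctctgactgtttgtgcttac
Hist1h1e: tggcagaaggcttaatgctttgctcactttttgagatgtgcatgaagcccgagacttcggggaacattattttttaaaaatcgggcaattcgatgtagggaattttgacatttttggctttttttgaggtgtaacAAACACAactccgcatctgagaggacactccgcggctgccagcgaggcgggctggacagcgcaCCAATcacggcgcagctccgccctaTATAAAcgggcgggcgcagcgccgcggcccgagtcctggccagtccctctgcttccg
The linker histone genes Hist1h1d and Hist1h1e share a layout in these letters. Both have a TATA box (TATAAA), at position -26 in Hist1h1d and -27 in Hist1h1e, a CCAAT box at -51 and -52, and the H1 box (AAACACA, in 6.78% of genes) at -122 and -115. Hist1h1d has 2 further TATA letters on the other strand, at -153 and -145. Hist1h2af, which encodes a core histone, has CCAAT boxes at -130 and, on the other strand, at -94, and neither of the other motifs.

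Few genes separated the genotypes. Of 15656 tested entries 69 were called (0.441%), 47 higher in knockout LPS lungs (0.3%) and 22 lower (0.141%) per the authors' deposited table; 36 of them, 30 higher and 6 lower, differed at least 2-fold. The median log2 fold over all tested entries was -0.01 per the authors' deposited table. Some of the called entries were genes of chromosome 1, clustered histones, antibody and B cell genes, nucleolar genes and mitochondrial enzymes, and the others had mixed roles. Just inside the threshold lay Tmx1, AK162774 and an entry of 5330429B09Rik at adjusted p of 0.0478, 0.0479 and 0.0481, and just outside it Hivep3 and Necap1, both at 0.0513, per the authors' deposited table.

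**Figure D1:**
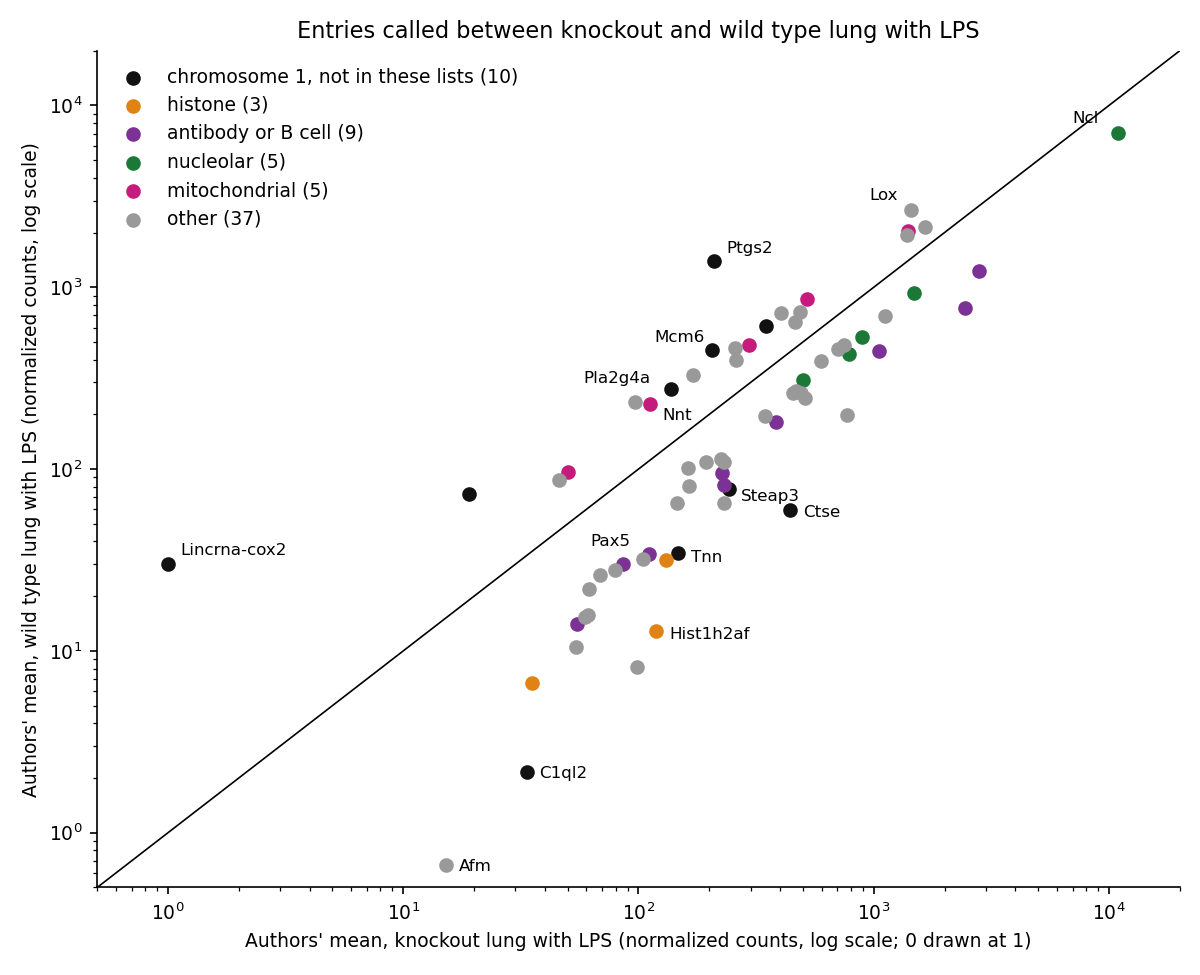
Authors' means of the 69 called entries in knockout LPS lungs (horizontal axis) and wild type LPS lungs (vertical axis), both in normalized counts on log scales, with equality as the line. Points below the line are higher in knockout lungs (47 entries) and points above it lower (22); colours give groups, with lincRNA-Cox2, listed at 0 in knockout lungs, drawn at 1.

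The targeted RNA was lost. LincRNA-Cox2 had a mean of 0 in knockout LPS lungs and 30.2 in wild type LPS lungs, which makes it at least 15.1-fold lower at a floor of 3 reads for the whole group; its adjusted p was 2.09e-06 per the authors' deposited table. With PBS the means were 0 in knockout and 34.8 in wild type lungs, at least 33.5-fold lower. Ptgs2, whose end lies 0.0508 Mb from lincRNA-Cox2, fell to a mean of 208 in knockout LPS lungs, against 1397 in wild type LPS lungs, with a log2 fold of -2.70 (adjusted p 3.64e-31) per the authors' deposited table, the smallest p of the comparison. Pla2g4a, on the far side of Ptgs2 and 0.198 Mb from lincRNA-Cox2, had means of 138 in knockout and 275 in wild type LPS lungs, a log2 fold of -0.97 (adjusted p 0.00136) per the authors' deposited table. With PBS its means were 81.2 in knockout and 125 in wild type lungs, with a log2 fold of -0.61 (adjusted p 1) per the authors' deposited table. Ptgs2os, an antisense RNA whose promoter window shares 216 bases with that of Ptgs2, was too low to be tested (means of 1.87 in knockout and 5.20 in wild type LPS lungs).

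The tested genes on the other side of lincRNA-Cox2 were not called. Tpr, a nuclear pore protein, had means of 2360 in knockout and 1930 in wild type LPS lungs, with a log2 fold of 0.29 (adjusted p 0.563) per the authors' deposited table. Prg4, the lubricant proteoglycan lubricin, had a higher mean in knockout LPS lungs (555, against 114 in wild type), but its log2 fold of 1.71 had an adjusted p of 0.368 per the authors' deposited table. Hmcn1, Ivns1abp, Swt1, Trmt1l, Rnf2, Fam129a, Edem3 and 1700025G04Rik, which complete the tested neighbours within 2 Mb, had log2 folds between -0.46 and 0.10 and none was called per the authors' deposited table. Calls within 2 Mb were thus those of lincRNA-Cox2, Ptgs2 and Pla2g4a.

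Prostanoid genes downstream and upstream of cyclooxygenase 2 were looked at next, where 0.441% of all tested entries were called in either direction. At that share a short list without a call is no result about its genes. Of 11 tested genes of prostanoid synthesis the same pair, Ptgs2 and Pla2g4a, was called lower and none higher. Of all tested entries 0.141% were called lower. The median log2 fold of the 11 was 0.07 per the authors' deposited table. Cbr1, a carbonyl reductase, had means of 154 in knockout and 219 in wild type LPS lungs and a log2 fold of -0.48 (adjusted p 0.732), and Hpgds, the haematopoietic prostaglandin D synthase, had 13.5 in knockout and 8.47 in wild type LPS lungs with a log2 fold of 0.61 (adjusted p 0.732) per the authors' deposited table. None of 7 tested prostanoid receptors was called (median -0.11, 5 below 0): Ptgfr, the prostaglandin F receptor, had means of 8.77 in knockout and 18.8 in wild type LPS lungs, and Ptgir, the prostacyclin receptor, had means of 302 in knockout and 228 in wild type LPS lungs. None of 5 genes of prostaglandin clearance was called (median -0.10); Hpgd, which inactivates prostaglandins, had means of 520 in knockout and 782 in wild type LPS lungs, a log2 fold of -0.50 (adjusted p 0.838) per the authors' deposited table. The leukotriene branch, fed by the same arachidonic acid, had no call among 9 tested genes and a median log2 fold of 0.14 per the authors' deposited table.

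Calls on chromosome 1 reached far beyond the locus, in both directions of change. Ctse, the aspartic protease cathepsin E, rose to a mean of 441 in knockout LPS lungs, against 59.3 in wild type, with a log2 fold of 2.69 (adjusted p 1.45e-06) per the authors' deposited table. A second entry with the symbol Ctse pointed the other way, with means of 16.3 in knockout and 39.5 in wild type LPS lungs, a log2 fold of -1.17 (adjusted p 0.196) per the authors' deposited table. Steap3, which reduces iron in endosomes, rose to 242 in knockout LPS lungs, against 77.8 in wild type, a log2 fold of 1.60 (adjusted p 1.45e-06) per the authors' deposited table. Its neighbour C1ql2, a secreted C1q-like protein best known from synapses, had means of 33.4 in knockout and 2.16 in wild type LPS lungs, with a log2 fold of 3.23 (adjusted p 0.00236) per the authors' deposited table, the largest rise of the comparison. Tnn, the matrix glycoprotein tenascin N, rose to 148 in knockout LPS lungs, against 34.5 in wild type, with a log2 fold of 2.02 (adjusted p 9.59e-06) per the authors' deposited table. In the other direction Mcm6, part of the helicase that opens DNA for replication, fell to 206 in knockout LPS lungs, against 450 in wild type, a log2 fold of -1.11 (adjusted p 4.98e-04) per the authors' deposited table. It was the single call among 26 DNA replication genes, of which 18 had folds above 0 (median 0.09). Of all tested entries 0.141% were called lower and 0.441% in either direction, so the lack of other calls in that list is no result. Wdfy1, an endosomal adaptor, had means of 347 in knockout and 609 in wild type LPS lungs with a log2 fold of -0.80 (adjusted p 1.35e-04), and 5430435G22Rik, Rab7b in RefSeq and a GTPase of late endosomes, had 19.0 in knockout and 73.1 in wild type LPS lungs with a log2 fold of -1.74 (adjusted p 0.0367) per the authors' deposited table.

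Of 57 called entries with a known position 11 lay on chromosome 1 (19.3%), which held 5.93% of the tested entries. Beyond 1 Mb on either side of lincRNA-Cox2 it was 8 of 54 (14.8%), and among calls with an adjusted p under 0.01 it was 9 of 20 (45.0%). The 9 called entries that lay within 35 Mb of lincRNA-Cox2 ran from Steap3, 29.9 Mb away, through C1ql2 (29.8 Mb), Mcm6 (21.8 Mb), Ctse (18.5 Mb) and 5430435G22Rik (18.4 Mb) to Pla2g4a, Ptgs2 and lincRNA-Cox2 itself and, on the other side, Tnn (9.92 Mb). Ncl and Wdfy1 lay 63.8 and 70.4 Mb away. Which share of these entries is tied to the targeted locus was not tested.

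The PBS libraries are not among the 6 compared with LPS, and their values for the same genes stand beside that comparison. Whether the authors fitted them together with the LPS libraries is not stated, so they are not an independent reading. In knockout against wild type PBS lungs 8 of 18982 entries were called (0.0421%), and 6 of the 69 entries called with LPS were among them, namely Ctse, Tnn, Steap3, Mcm6, Ptgs2 and lincRNA-Cox2. All 6 lie on chromosome 1 and had the same sign under both treatments. Tnn had PBS means of 627 in knockout and 62.1 in wild type lungs and Ctse of 230 in knockout and 20.6 in wild type, with log2 folds of 3.15 and 3.06 per the authors' deposited table. Mcm6 had PBS means of 104 in knockout and 345 in wild type lungs, with a log2 fold of -1.68 (adjusted p 1.1e-06) per the authors' deposited table. C1ql2 was not called with PBS: its means were 0.347 in knockout and 1.32 in wild type lungs, both under the limit for a mean of 3 reads.

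**Figure D2:**
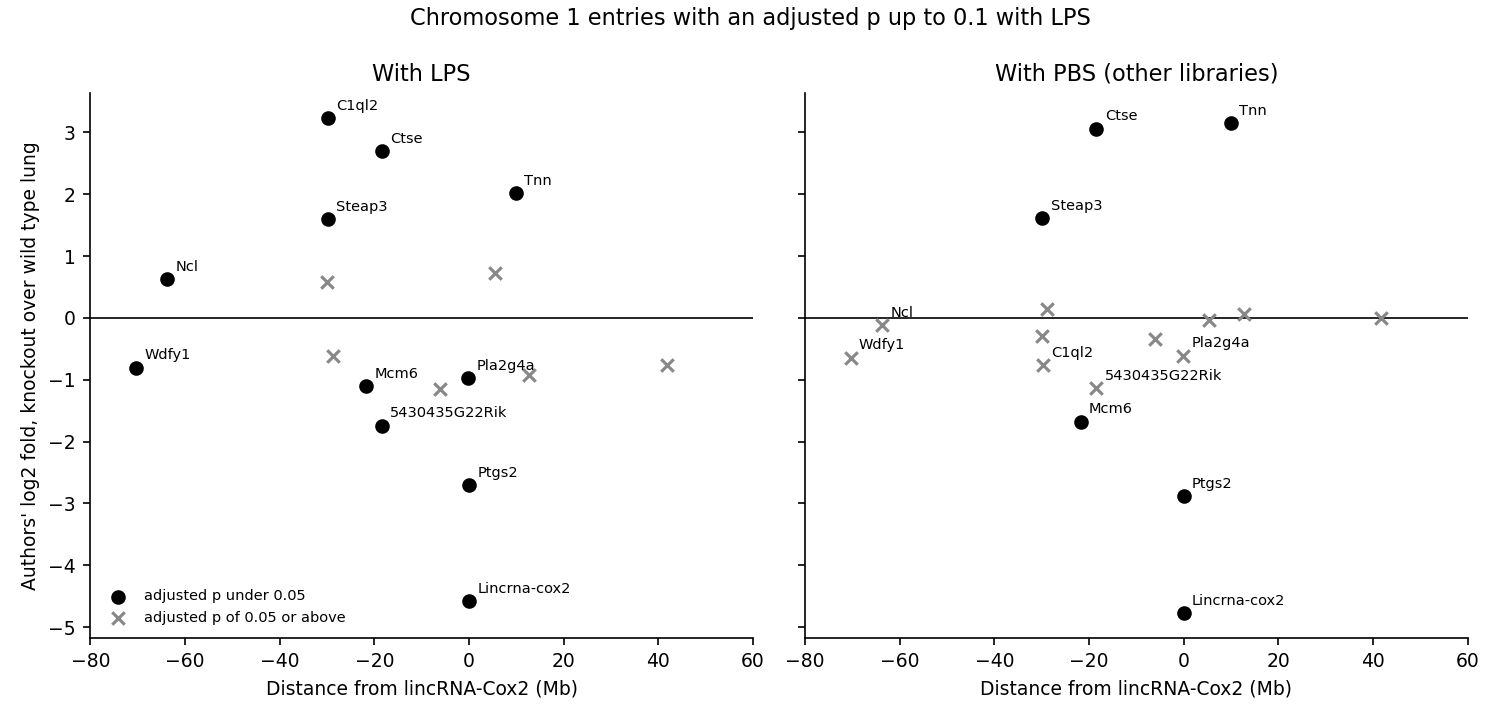
Log2 fold of knockout over wild type lungs per the authors' deposited table (vertical axis) against the distance from lincRNA-Cox2 in Mb (horizontal axis) for the 17 chromosome 1 entries with an adjusted p up to 0.1 with LPS; the left panel gives the LPS libraries and the right panel the PBS libraries. Filled points have an adjusted p under 0.05 under the treatment shown, and names are given for the 11 entries called with LPS. Ctse, Tnn, Steap3, Mcm6, Ptgs2 and lincRNA-Cox2 are filled in both panels.

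No entry from outside chromosome 1 that was called with LPS was called with PBS. Of the 47 entries called higher 27 had a PBS fold above 0 (57.4%), and of the 22 called lower 11 had a PBS fold below 0 (50%), where 43.0% of all tested entries had the same sign under both treatments. The same contrast can be read from the means: the median log2 ratio of the LPS to the PBS mean, with a pseudocount of 1, was 0.92 in knockout and -0.16 in wild type lungs for the entries called higher, and -0.53 in knockout and 0.17 in wild type lungs for those called lower. At least 2-fold higher means with LPS than with PBS were found for 21 of the 47 in knockout lungs and 4 of the 47 in wild type lungs. These ratios use the means that chose the entries, so they describe the calls and test nothing, and the difference between the treatments was not tested. LPS and PBS groups also differ in Xist, as given above.

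Of the clustered histone genes, a list assembled after the calls had been seen, 3 were called higher in knockout LPS lungs, and most of the others had higher means there without a call. These genes encode the histones made during DNA replication, and most of their mRNAs end in a stem-loop in place of a poly(A) tail. Hist1h2af rose to a mean of 119 in knockout LPS lungs, against 12.8 in wild type, with a log2 fold of 2.91 (adjusted p 4.43e-06) per the authors' deposited table. Hist1h1e had means of 131 in knockout and 31.5 in wild type LPS lungs, with a log2 fold of 1.85 (adjusted p 0.0428), and Hist1h1d had means of 35.4 in knockout and 6.65 in wild type LPS lungs, with a log2 fold of 2.09 (adjusted p 0.0452) per the authors' deposited table. These 3 were the calls among 27 tested entries of the family, where 0.3% of all tested entries were called higher. Since the family was chosen after the calls, nothing is read from that count. The median log2 fold of the 27 was 0.94 per the authors' deposited table. Over all 61 entries, tested or not, the knockout mean was above the wild type mean with LPS in 54 and below it in 7. Their means summed to 2278 in knockout and 1350 in wild type LPS lungs.

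By histone class, all 13 H4 entries had higher means in knockout LPS lungs, and their means summed to 197 there, against 62.0 in wild type; none was called. All 5 H1 entries were higher, with sums of 798 in knockout and 394 in wild type LPS lungs. Of 13 H2A entries 12 were higher, of 12 H3 entries 10 and of 18 H2B entries 14. The H2A sum was 416 in knockout and 251 in wild type LPS lungs, the H3 sum 150 in knockout and 88.7 in wild type and the H2B sum 716 in knockout and 555 in wild type. By position, 47 of the 49 entries on chromosome 13, in the largest cluster, had higher means in knockout LPS lungs, while all 3 entries on chromosome 11 had lower ones. With PBS the sums were 1597 in knockout and 1649 in wild type lungs, and the knockout mean was higher in 13 entries and lower in 46. Reads of near-identical histone copies cannot be assigned to 1 gene with certainty, so the sums are firmer than the single entries.

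Genes of proliferation and of histone mRNA processing were set beside the histones. With 0.441% of all tested entries called, a list of this size without a call is no result about its genes. None of 26 mitosis genes was called (median log2 fold 0.03, 16 above 0, per the authors' deposited table). Mki67, a marker of dividing cells, had means of 1232 in knockout and 673 in wild type LPS lungs, a log2 fold of 0.85 (adjusted p 0.178) per the authors' deposited table. Of 16 genes of histone mRNA processing and of histone variants none was called (median 0.09); Slbp, which binds the stem-loop, had means of 274 in knockout and 360 in wild type LPS lungs. Malat1, a nuclear noncoding RNA, was not called but leaned the same way as the histones, at a mean of 71259 in knockout and 29604 in wild type LPS lungs, with a log2 fold of 1.20 (adjusted p 0.0935) per the authors' deposited table. Among 16 tested snoRNA hosts and nuclear noncoding RNAs 12 had folds above 0, with a median of 0.38, and none was called. The part of RNA selection or RNA quality in these values was not tested.

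Antibody transcripts and B cell genes formed the second group of rises. Of 8 tested antibody entries, whose reads come from rearranged and closely similar genes, 7 were called higher, where 0.3% of all tested entries were. The list was assembled after the calls had been seen, so nothing is read from that count. Its median log2 fold was 1.34 per the authors' deposited table. The highest of the 4 called entries named abParts had means of 2791 in knockout and 1225 in wild type LPS lungs, with a log2 fold of 1.15 (adjusted p 0.00914), and the next had means of 2439 in knockout and 765 in wild type LPS lungs, with a log2 fold of 1.64 (adjusted p 7.47e-09) per the authors' deposited table. Igh-A_(1g2), by its symbol an immunoglobulin heavy chain, had means of 1056 in knockout and 445 in wild type LPS lungs, with a log2 fold of 1.20 (adjusted p 0.0367) per the authors' deposited table. Ighg, a heavy chain entry, had 54.5 in knockout and 14.1 in wild type LPS lungs (adjusted p 0.00244), and Igj, which joins the subunits of secreted antibodies, 227 in knockout and 95.5 in wild type LPS lungs (adjusted p 0.0178) per the authors' deposited table. All antibody entries summed to 7210 in knockout and 2815 in wild type LPS lungs. With PBS they summed to 6024 in knockout and 3958 in wild type lungs, with a median log2 fold of 0.53 per the authors' deposited table, and none of them was called.

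B cell markers leaned the same way. Of 18 markers 17 had folds above 0 (median 0.82) and 2 were called higher. Pax5, which keeps B cells committed to their lineage, had means of 111 in knockout and 34.0 in wild type LPS lungs, with a log2 fold of 1.62 (adjusted p 0.00517) per the authors' deposited table. Bank1, a scaffold of the B cell receptor, had 86.2 in knockout and 30.2 in wild type LPS lungs, with a log2 fold of 1.41 (adjusted p 0.0421) per the authors' deposited table. Cd22, an inhibitory receptor of B cells, had 288 in knockout and 117 in wild type LPS lungs (adjusted p 0.122) per the authors' deposited table. The marker sum was 2481 in knockout and 1359 in wild type LPS lungs, and with PBS 2357 in knockout and 1778 in wild type lungs; no marker was at 0. Zbtb32, a transcriptional repressor of lymphocytes, rose to 61.5 in knockout LPS lungs, against 22.0 in wild type, a log2 fold of 1.41 (adjusted p 0.00781) per the authors' deposited table. In whole lung, more B cells and more RNA per B cell cannot be told apart, and the same holds for every cell type below.

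Other lymphoid genes leaned the same way without a call. All 13 T cell markers had folds above 0 (median 0.32, and 0.14 over those with a mean of at least 10), and Tcf7, a transcription factor of T cells, had means of 173 in knockout and 127 in wild type LPS lungs. Of 8 tested entries of lymph node stroma 7 were above 0 (median 0.63), led by Cxcl13, which attracts B cells, with means of 1030 in knockout and 497 in wild type LPS lungs (adjusted p 0.601) per the authors' deposited table; Glycam1, which marks lymph node vessels, was listed at 0 in both groups. The 7 tested plasma cell markers had a median log2 fold of -0.05 per the authors' deposited table, with Igj as the 1 call. With 0.3% of all tested entries called higher, the lack of a call in the other markers is no result about secreting cells. Tnfrsf17, a receptor of plasma cells, was at 0.401 in knockout and 0 in wild type LPS lungs.

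**Figure D3:**
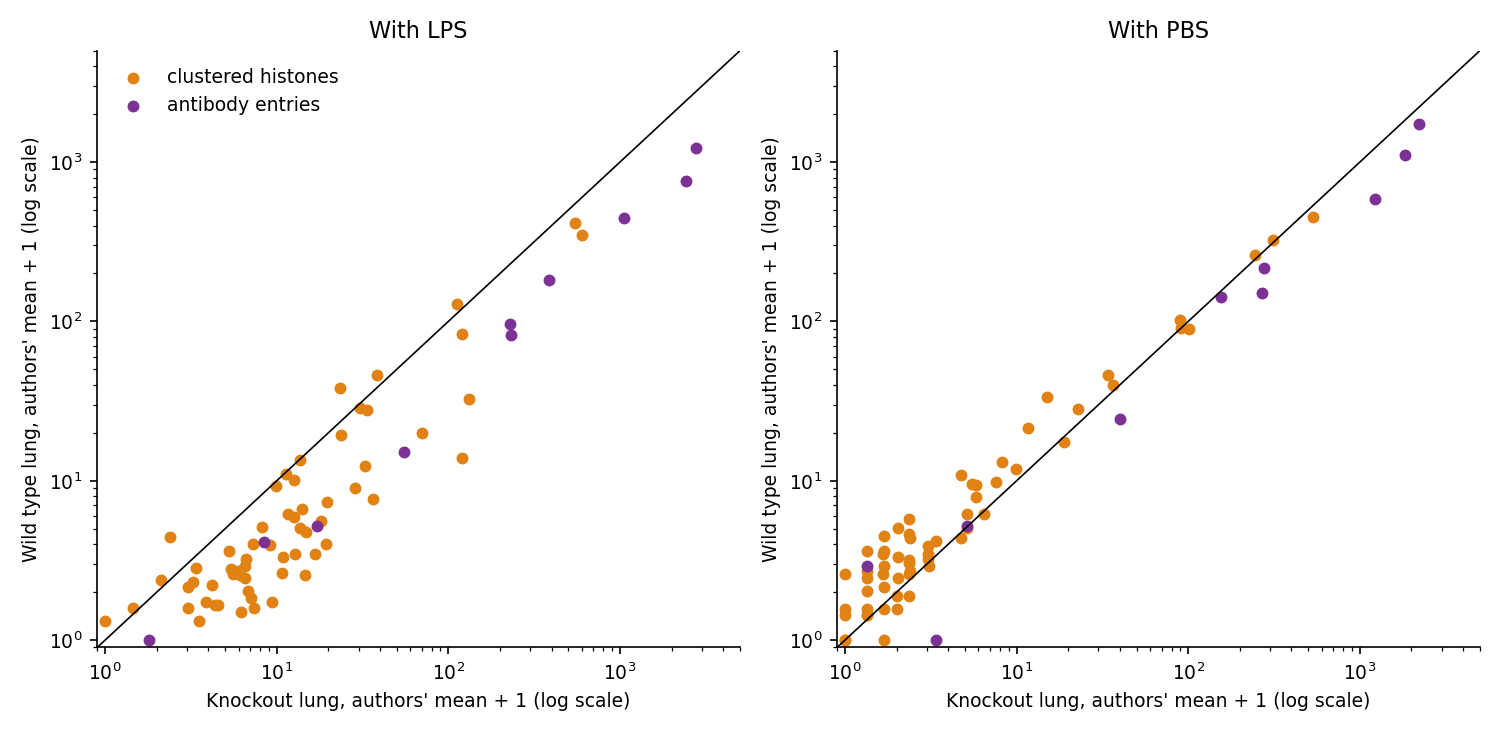
Authors' means plus 1 of the 61 clustered histone entries (orange) and the 10 antibody entries (purple) in knockout lungs (horizontal axis) and wild type lungs (vertical axis), in normalized counts on log scales, with LPS (left panel) and with PBS (right panel). With LPS 54 histone entries lie below the line of equality, where knockout is higher, and with PBS 13 do; the antibody entries lie on the knockout side with LPS.

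Nucleolar genes made up another group of rises, smaller in size but in abundant mRNAs. Tcof1, which supports transcription of ribosomal RNA, rose to 784 in knockout LPS lungs, against 431 in wild type, with a log2 fold of 0.86 (adjusted p 2.01e-04) per the authors' deposited table. Gpatch4, a nucleolar protein, had means of 889 in knockout and 535 in wild type LPS lungs (adjusted p 0.00517), and Lyar, another, 499 in knockout and 311 in wild type LPS lungs (adjusted p 0.0428) per the authors' deposited table. Gltscr2, a ribosome assembly factor, had 1488 in knockout and 927 in wild type LPS lungs (adjusted p 0.0452), and Ncl, the major nucleolar protein nucleolin, 10919 in knockout and 7041 in wild type LPS lungs with a log2 fold of 0.63 (adjusted p 0.0289) per the authors' deposited table. Of 100 genes of the nucleolus and ribosome assembly these 5 were called higher and none lower, where 0.3% of all tested entries were called higher. Folds were above 0 in 90 of the 100, with a median of 0.28. At an adjusted p up to 0.1 there were 12, all higher, where 0.773% of all tested entries passed in either direction and 0.485% passed as higher; with PBS the median was -0.03. All 37 entries of ribosomal proteins had folds above 0 with LPS (median 0.40) and none was called; with PBS their median was -0.36. These lists were assembled after the calls had been seen, so nothing is read from the counts of calls in them.

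The other genes called higher had mixed roles. Afm, a plasma protein of the liver that binds vitamin E, had means of 15.2 in knockout and 0.664 in wild type LPS lungs, the wild type mean being below that of 3 reads (adjusted p 0.0178) per the authors' deposited table. Eid3, a subunit of a chromosome maintenance complex, had 60.8 in knockout and 15.8 in wild type LPS lungs, and Eif4ebp3, a repressor of cap-dependent translation, 232 in knockout and 109 in wild type LPS lungs, with log2 folds of 1.80 and 1.06 and adjusted p of 0.0364 and 0.0178 per the authors' deposited table. Osr1, a transcription factor of embryonic mesoderm, had 468 in knockout and 268 in wild type LPS lungs, with a log2 fold of 0.79 (adjusted p 0.00894) per the authors' deposited table; with PBS it stood at 117 in knockout and 54.7 in wild type lungs, with a log2 fold of 1.06 (adjusted p 0.0705) per the authors' deposited table. Erdr1 had means of 768 in knockout and 198 in wild type LPS lungs, with a log2 fold of 1.80 (adjusted p 0.0208) per the authors' deposited table. The remaining rises had log2 folds from 0.58 to 3.00 per the authors' deposited table. They included the transcripts mFLJ00385, AK155692, AK134400 and AK162774, which have no annotated position here, and 2 entries each of 5330429B09Rik and Plac9b. Also among them were the zinc finger genes Zbtb38, Zbtb21 and Zfp628, the spliceosome subunit Sf3a2 and the DNA-binding protein Nabp2. The homeobox gene Hoxb4, the GTPase Arf5 and the actin-binding Cotl1 were others. The mFLJ00385 entry had means of 98.4 in knockout and 8.13 in wild type LPS lungs. It is numbered close to Ighg and an abParts entry but was not counted with the antibody entries. Whether it belongs to them was not tested.

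Some of the falls were in mitochondrial enzymes. Nnt, which makes NADPH from NADH in the inner membrane, fell to 112 in knockout LPS lungs, against 229 in wild type, with a log2 fold of -1.01 (adjusted p 0.0208) per the authors' deposited table. Idh2, the NADPH-forming isocitrate dehydrogenase, had means of 295 in knockout and 483 in wild type LPS lungs with a log2 fold of -0.69 (adjusted p 0.0394), and Ak3, an adenylate kinase of the matrix, 519 in knockout and 866 in wild type LPS lungs with a log2 fold of -0.73 (adjusted p 6.01e-04) per the authors' deposited table. Oat, which interconverts ornithine and glutamate semialdehyde, had 1405 in knockout and 2040 in wild type LPS lungs (adjusted p 0.0339), and Car5b, a mitochondrial carbonic anhydrase, 50.2 in knockout and 96.4 in wild type LPS lungs (adjusted p 0.0428) per the authors' deposited table. Of 38 genes of matrix metabolism, a list drawn up after these calls were seen, these 5 were called lower and none higher, where 0.141% of all tested entries were called lower, and since the list was built from these calls nothing is read from that count; the median was -0.11 with 24 below 0. Of 20 subunits of the respiratory chain 17 had folds above 0 (median 0.15) and none was called.

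The other falls covered matrix, cytoskeleton and metabolism. Lox, which crosslinks collagen and elastin, fell to 1443 in knockout LPS lungs, against 2655 in wild type, with a log2 fold of -0.87 (adjusted p 0.00301) per the authors' deposited table. Of 22 tested collagens and crosslinking enzymes 16 had folds below 0 (median -0.27), with Lox as the 1 call. Mmp2, a gelatinase of stromal cells, had means of 306 in knockout and 721 in wild type LPS lungs and was not called (adjusted p 0.0732 per the authors' deposited table). The pseudogene Tmem181b-ps had 96.6 in knockout and 235 in wild type LPS lungs, with a log2 fold of -1.27 (adjusted p 2.09e-06) per the authors' deposited table. Mxd4, a repressor of the Myc network, had 170 in knockout and 330 in wild type LPS lungs (adjusted p 0.0171), and Cipc, which binds the circadian factor CLOCK, 257 in knockout and 461 in wild type LPS lungs (adjusted p 0.0352) per the authors' deposited table. Add3, a cytoskeletal adducin, Trappc2, a vesicle tether, Cldn12, a claudin of cell junctions, Prkaa1, a catalytic subunit of the energy sensor AMPK, Tmx1, a thioredoxin of the endoplasmic reticulum, Elovl5, a fatty acid elongase, and Chp1, a calcium-binding protein, completed the calls, with log2 folds between -0.90 and -0.38 per the authors' deposited table.

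The lists of inflammatory genes, which leave out Ptgs2, had no call. With 0.441% of all tested entries called, lists of this size without a call are near that share. None of 24 tested inflammatory cytokines was called (median log2 fold 0.07, 13 above 0), nor any of 36 chemokine entries (median 0.36, 30 above 0) per the authors' deposited table. Tnf had means of 260 in knockout and 428 in wild type LPS lungs (adjusted p 0.303), and Lif, a cytokine of the interleukin 6 family, 139 in knockout and 236 in wild type LPS lungs (adjusted p 0.458) per the authors' deposited table. Ccl7, a chemokine for monocytes, had 1120 in knockout and 641 in wild type LPS lungs (adjusted p 0.503) per the authors' deposited table. Of 38 type I interferon response genes none was called and the median was 0.04; with PBS the median was -0.78. Interferon gamma response genes had a median of 0.01 over 25 tested. Targets and regulators of NF-kB had folds above 0 in 16 of 20 (median 0.23), and receptors and signalling proteins of LPS in 8 of 23 (median -0.04), with no call in either list.

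The acute phase and stress lists given here had no call either, which is again near the share over all tested entries. Acute phase genes had folds above 0 in 15 of 17 (median 0.34), headed by Fgb, the fibrinogen beta chain, with means of 717 in knockout and 86.4 in wild type LPS lungs (adjusted p 0.507) per the authors' deposited table. Glucocorticoid response genes had folds below 0 in 10 of 14 (median -0.28); Tsc22d3 had means of 3130 in knockout and 5160 in wild type LPS lungs. Leukocyte adhesion molecules had folds below 0 in 12 of 15 (median -0.17), among them Sele, the endothelial selectin, with means of 236 in knockout and 351 in wild type LPS lungs. Medians of the heat shock, unfolded protein response, hypoxia, circadian and complement lists lay between -0.04 and 0.17.

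**Figure D4:**
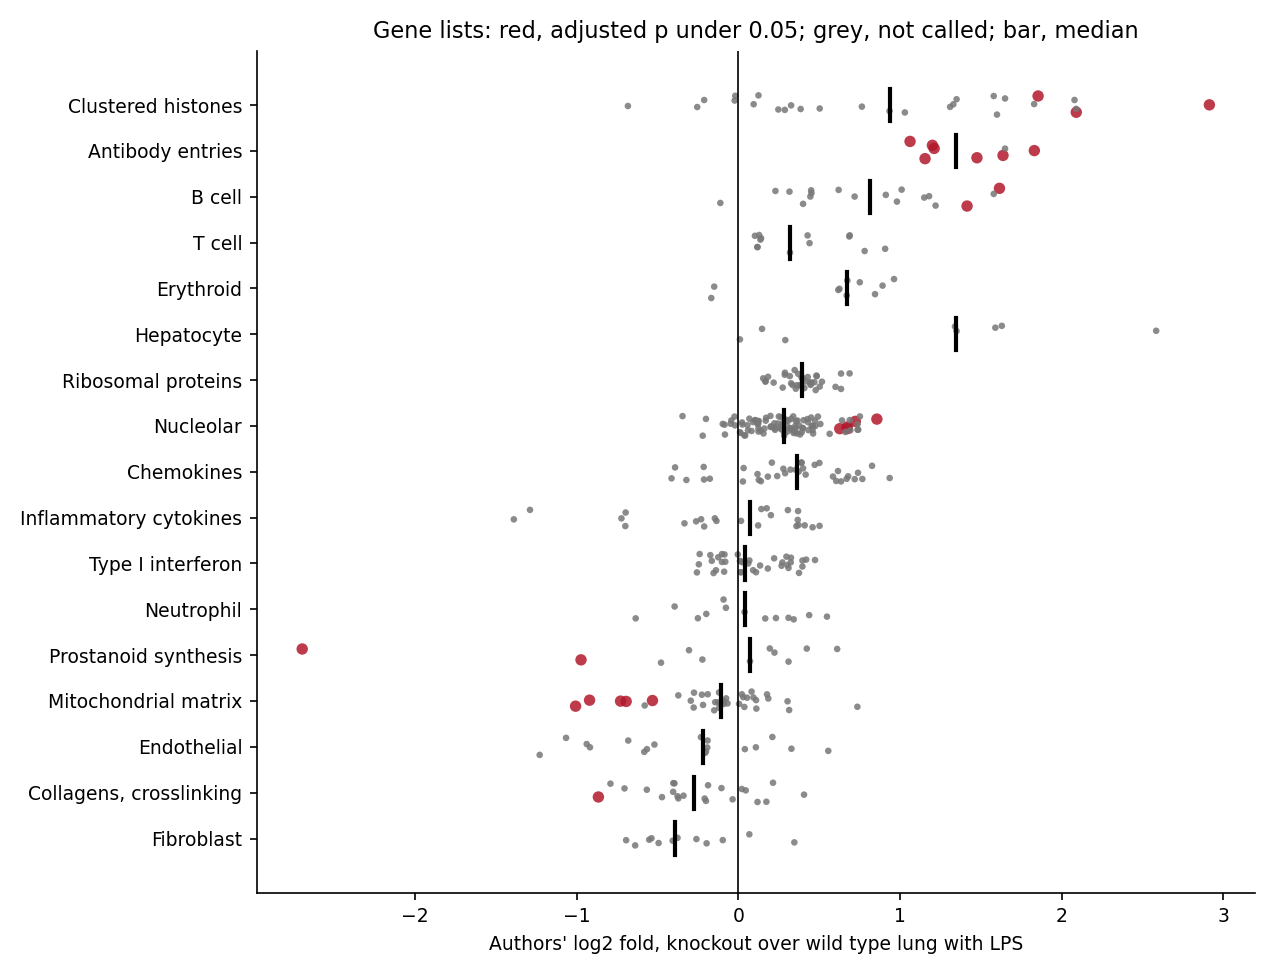
Log2 folds of knockout over wild type LPS lungs per the authors' deposited table (horizontal axis) for the tested members of 17 gene lists. Each point is 1 entry, red where the adjusted p was under 0.05 and grey where it was not, and the black bar is the median of the list. Histones, antibody entries and B cell markers lie mostly to the right of 0, fibroblast and endothelial markers mostly to the left, and the cytokine and interferon lists around 0.

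Endothelial and fibroblast markers mostly had folds below 0, without a call. Of 18 endothelial markers 13 had folds below 0 (median -0.22), and they summed to 26381 in knockout and 30758 in wild type LPS lungs; Cdh5, which joins endothelial cells, had means of 12900 in knockout and 14700 in wild type. Kdr, which receives the growth factor VEGF, had means of 330 in knockout and 717 in wild type LPS lungs (adjusted p 0.099) per the authors' deposited table. With PBS the endothelial median was 0.29. Of 12 fibroblast markers 10 had folds below 0 (median -0.39), led by Npnt, a matrix protein, with means of 3070 in knockout and 4530 in wild type LPS lungs. Markers of smooth muscle and pericytes leaned the other way, with folds above 0 in 10 of 12 (median 0.12) and no call. Neutrophil, macrophage and alveolar epithelial markers had medians between -0.01 and 0.19, and S100a9, a neutrophil protein, had means of 9250 in knockout and 6700 in wild type LPS lungs.

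Markers of blood and of other organs were higher in knockout LPS lungs, also without a call. Erythroid markers had folds above 0 in 8 of 10 (median 0.67), with a sum of 91129 in knockout and 52182 in wild type LPS lungs. All 8 tested hepatocyte entries had folds above 0 (median 1.35), with means of Fga, the fibrinogen alpha chain, of 754 in knockout and 158 in wild type LPS lungs. Afm and the fibrinogen genes named above are products of the liver, so their values stand beside this list. All 10 tested entries of pancreatic acinar cells were above 0 (median 1.21); Ctrb1, chymotrypsinogen B, had means of 52.4 in knockout and 8.11 in wild type LPS lungs, and Amy2b was at 0 in knockout and 0.256 in wild type. With PBS the pancreatic median was -2.44. The 3 tested skeletal muscle markers were above 0 (median 1.54), with means of Mb, myoglobin, of 310 in knockout and 189 in wild type LPS lungs and of Pvalb, parvalbumin, of 18.1 in knockout and 0 in wild type. The part of other tissue in the called entries was not tested.

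Called entries with an annotated transcript differed from all tested entries in some transcript features. Entries called higher had a median GC content of 53.5% and those called lower 45.5%, against 50.1% over all tested entries with an annotated transcript. Transcript length had medians of 2379 bases for the entries called higher, 3450 for those called lower and 3060 over all tested entries. Transcripts of a single exon made up 4 of 31 entries called higher (12.9%), 0 of 22 called lower and 3.25% of all. The 4 were the called histones Hist1h2af, Hist1h1d and Hist1h1e, and Eid3. The 31 leave out those of the 47 rises without an annotated transcript, among them the abParts, Ighg and Igh-A_(1g2) entries. The same tilt ran through the whole table: when tested entries were split into 5 equal bins by GC content, the median log2 fold was -0.08 in the lowest and 0.11 in the highest bin, per the authors' deposited table, and calls numbered 4 higher and 8 lower in the lowest bin against 12 higher and 0 lower in the highest. Across 13870 entries the Spearman correlation of the fold was 0.193 with GC content and -0.242 with length, a description over genes that share the same 6 libraries. With PBS both tilts ran the other way, at -0.0905 and 0.257. The part of these features in the calls was not tested.

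**Figure D5:**
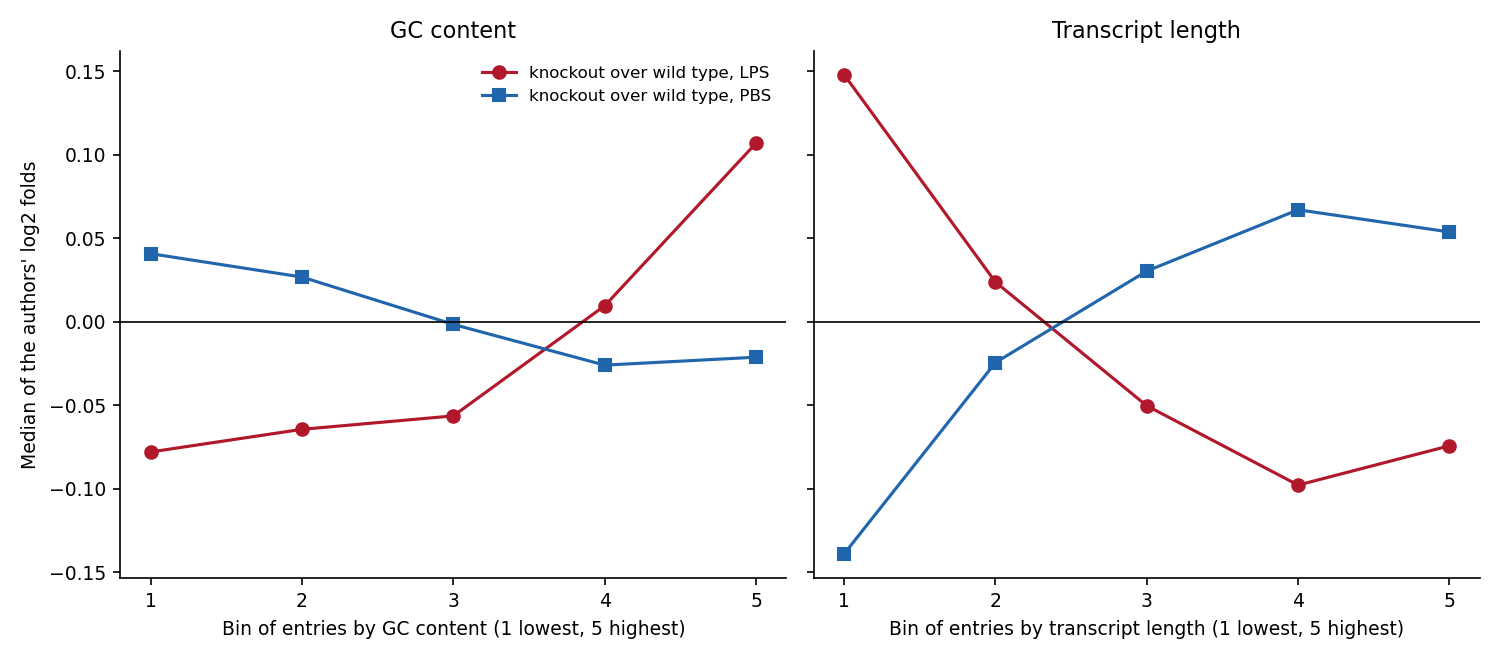
Median log2 fold of knockout over wild type lungs per the authors' deposited table (vertical axis) in 5 equal bins of the tested entries by GC content (left panel) and by transcript length in bases (right panel), with LPS (red circles) and with PBS (blue squares). With LPS the median climbs from -0.08 to 0.11 with GC content and is highest, at 0.15, for the shortest transcripts, where the PBS median is lowest, at -0.14.

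Other groups were set beside these calls. The mutant line, compared with the same wild type LPS libraries, had 12 of 16774 entries called (0.0715%). Because the libraries are shared, no overlap of the calls is given and the values stand side by side. The mutant libraries also differed in the sex-linked genes, with means in mutant LPS lungs of 4510 for Xist and 4.73 for Ddx3y. LincRNA-Cox2 had a mean of 0 in mutant LPS lungs, as in knockout LPS lungs. Its log2 fold of mutant over wild type was -4.77 (adjusted p 1.67e-06) per the authors' deposited table. Ptgs2 had a mean of 1058 in mutant LPS lungs and a log2 fold over wild type of -0.39 (adjusted p 0.972) per the authors' deposited table. In mutant LPS lungs the mean of Ctse was 49.8, that of Tnn 39.1, that of Mcm6 516 and that of Hist1h2af 18.0. The mean of Tmem181b-ps there was 102 and that of Zbtb32 65.2, beside means in knockout LPS lungs of 96.6 for Tmem181b-ps and 61.5 for Zbtb32. B cell markers summed to 1965, antibody entries to 4830 and clustered histones to 1280 in mutant LPS lungs. Against the mutant itself, a comparison that shares the knockout libraries, 39 of 16030 entries were called (0.243%). In spleen, with libraries of its own, 4 of 16572 entries were called between knockout and wild type with LPS (0.0241%). None of them was among the 60 called lung entries whose symbol occurs once. Called lung entries with a repeated symbol, among them the abParts entries and Ctse, were not looked up in spleen. Of the 38 higher entries with a spleen fold 18 were above 0 and 20 below, and of the 22 lower entries 10 were above 0 and 12 below. Sizes varied among these uncalled entries. Ptgs2 had means of 65.8 in knockout and 214 in wild type LPS spleens, Ighg 3760 and 939, and Igj 4920 and 1260, as in lung. The reverse of the lung direction was seen for Igh-A_(1g2) (4877 in knockout and 7330 in wild type LPS spleens), Hist1h1d (102 and 307) and Hist1h1e (155 and 404).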

How the data were processed

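Messenger RNA libraries were compared as group means. The lung and spleen tables deposited by the authors hold, per the file headers, 1 mean per group for each entry, a signal in normalized counts, and for each comparison a log2 fold, an adjusted p (kept as a score) and a mark for calls. The submitters' processing notes list DESeq2, STAR 2.5.3a, SAMtools, bedtools and Bowtie2 and the mm10 build, without order or settings. Library values and unadjusted p-values were not used here, and strand in counting is not given in the sources used here. The authors' marks end at an adjusted p of 0.1; the threshold here was 0.05.

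Of 19476 lung lines 6 with broken cells were left out, and of 18850 spleen lines 5, with 1026 split spleen symbols rejoined. In lung 25 symbols had been turned into dates and 240 were repeated; repeated symbols were kept as separate entries. Positions, transcript length and GC content came from GENCODE M21, with RefSeq GRCm38.p6 synonyms (93.4% of lung entries); promoters came from RefSeq. Depth was estimated from steps between low means (tolerance 0.5%), with the finder tested on simulated data. The floor is 3 reads over a group.

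The members and lists were chosen with earlier results of these data known, and the histone, antibody, nucleolar, ribosomal protein, nuclear RNA and matrix metabolism lists after the calls had been seen. Named were lincRNA-Cox2, Ptgs2, Pla2g4a, the 16 largest rises and 12 largest falls with a mean of at least 10, other calls by role, and in each list its calls and up to 4 more by size of fold with a mean of at least 10, or for markers by highest mean, besides the tested neighbours within 2 Mb and entries beside the threshold. Python 3.11.15, pandas 2.3.3, numpy 2.4.6 and matplotlib 3.10.9 were used.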

Additional observations from a re-analysis of the deposited data

How the results depend on the processing

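Only group means were at hand, so leaving out single libraries, other count tests and other size factors could not be run. No paired analysis was possible because the tables hold no values of single libraries. Calls at an adjusted p up to 0.1 numbered 121 (76 higher, 45 lower), under 0.01 26 (18 higher, 8 lower) and with at least 2-fold 36 (30 higher, 6 lower). Calls numbered 69 with a mean of at least 10, 65 with at least 50 and 60 with 1 entry per symbol. Without antibody and histone entries, a setting chosen after seeing the data, they numbered 59, with mFLJ00385 kept. The share on chromosome 1 was 45.0% under 0.01. With log2 ratios of the means in place of the deposited folds, the hepatocyte median was 2.44 with a pseudocount of 1 and 2.17 with 10, that of skeletal muscle 1.91 and 1.27, and that of pancreatic acinar cells 1.67 and 0.811; the clustered histone median was 0.555 with a pseudocount of 10, against 0.935 with the deposited folds. LincRNA-Cox2 stood at -4.96 and -2.01 with these pseudocounts, since its knockout mean is 0. The causes of these shifts were not tested. Of 256 recomputed list medians, over 64 lists and 4 alternatives, 7 moved by over 0.25 and 5 changed sign, these from reported medians of at most 0.0472 in size.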
